A study of Rattus norvegicus with 10 samples.

Results

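Arrays of the rat hippocampus were examined for 10 genes of the pineal gland and the photoreceptor: Pde6g, Pdc, Gngt1, Gnb3, Aipl1, Mpp4, Crx, Sag, Asmt and Drd4. Every probe set annotated with exactly 1 of these symbols was taken, which gave 13 probe sets, out of 31042 probe sets and 14217 genes in all. Both groups were male Wistar rats, acclimatized to powdered feed for 2 days at 3 weeks of age. The C-group (5 rats, C1 to C5) then received solid chow for 8 days, whereas the P-group (5 rats, P1 to P5) stayed on the powdered diet, and the labels give an age of 4 weeks for both. The hippocampi were dissected by hand, and the mRNA of each rat was measured on 1 Affymetrix rat genome array from 100 ng of total RNA. The comparison asks which hippocampal genes differ with chewing of the diet at weaning.

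Phototransduction is the cascade by which light, through an opsin, the G protein transducin and a phosphodiesterase, lowers cGMP and closes cation channels in rods and cones. The pinealocyte, the melatonin-producing cell of the pineal gland, shares an evolutionary origin with the photoreceptor and, in the rat, still expresses many genes of this cascade together with the enzymes that convert serotonin to melatonin. The homeodomain proteins Otx2 and Crx control many of these genes in both cell types. The pineal gland lies on the dorsal midline of the brain, behind the hippocampi.

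The data showed a single pattern. All 10 genes were higher in rat P2 than in each of the other 9 rats, at every one of their 11 probe sets that varied. Pde6g stood 14.7-fold above the median of the other rats and Mpp4 9.44-fold, whereas the smallest distance, of Crx, was 1.84-fold. The other 9 rats, of both groups, spanned only 0.14 to 0.50 log2 units at a probe set. The 10 genes were chosen on these same log2 values, with P2 and the C-group minus P-group differences in view, so their levels, their differences between the groups and their common variation are given as a description, with no test.

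A probe set is a group of short probes for 1 transcript, and its deposited value is on a log2 scale, so that 1 unit is a 2-fold difference. The normalization used by the authors, qFARMS, fits 1 common factor to the probes and returns nearly the same value for all arrays where that factor is weak. The SD (standard deviation) over the 10 rats was above 0.01 at 2904 of the 31042 probe sets, and these are called variable below. Of the 13 probe sets of the 10 genes, 11 were variable, and each gene had at least 1. The 2 constant ones were both of Drd4, with 6.63 and 6.18 in every rat. A constant value does not show that a gene was silent or that it did not change. Levels of different probe sets are not comparable with each other, so only differences between rats are set side by side. The median level of an array was between 7.0 and 7.02. Rat C1 stood apart in a different way, with the highest value of the 10 rats at 1553 of the 2904 variable probe sets.

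The genes of the target enzyme of the cascade and of its G protein are given first. Pde6g encodes the inhibitory gamma subunit of the rod cGMP phosphodiesterase. It was 7.11, 7.14, 6.99, 6.80 and 6.89 in C1 to C5, and 7.13, 10.87, 6.91, 6.78 and 7.15 in P1 to P5. P2 was the only rat above 7.15, and the remaining 4 rats of the P-group were spread over the same range as the C-group. Of all 31042 probe sets, that of Pde6g had the largest distance of P2 from the median of the other 9 rats (3.88 log2 units). Aipl1 encodes a chaperone that photoreceptors need to assemble this phosphodiesterase, and it was 5.96, 6.16, 6.06, 6.05 and 5.77 in the C-group against 6.07, 8.30, 5.98, 6.24 and 5.73 in the P-group. The lowest of the 10 rats, P5, and the highest, P2, were thus both in the P-group.

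Gngt1 encodes the gamma subunit of rod transducin. Its values were 5.62, 5.61, 5.41, 5.47 and 5.47 in the C-group and 5.49, 8.49, 5.54, 5.58 and 5.52 in the P-group, so that P2 lay 2.97 log2 units (7.81-fold) above the median of the others. Gnb3 encodes a beta subunit, known from cone transducin, and was measured by 2 variable probe sets. One of them read 6.96, 6.73, 6.76, 7.06 and 7.0 in the C-group against 7.12, 9.45, 6.84, 7.10 and 6.75 in the P-group. The other read 6.24, 6.35, 6.22, 6.39 and 6.34 in the C-group against 6.33, 8.20, 6.26, 6.31 and 6.23 in the P-group. Both probe sets of Gnb3 had their highest value in P2, by 2.50 and 1.89 log2 units over the median of the other rats.

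Pdc encodes phosducin, which binds the beta and gamma subunits of transducin, and Sag encodes an arrestin of photoreceptors and pinealocytes, which shuts off the cascade. Pdc was 5.53, 5.62, 5.63, 5.55 and 5.64 in the C-group and 5.67, 8.82, 5.65, 5.63 and 5.65 in the P-group. Apart from P2 (9.07-fold over the median), its values stayed within 0.14 log2 units, the tightest range of the 11 variable probe sets. Sag was 6.39, 6.38, 6.43, 6.31 and 6.32 in the C-group and 6.45, 7.30, 6.19, 6.35 and 6.39 in the P-group. Its distance in P2 was 0.92 log2 units, smaller than those of the transducin subunits, while the other rats again overlapped between the groups.

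Mpp4 encodes a membrane-associated scaffold protein of photoreceptors, Crx the homeodomain factor named above, and Drd4 the D4 dopamine receptor, which the rat pineal gland expresses with a day and night rhythm. Mpp4 was 6.47, 6.08, 6.22, 6.28 and 6.46 in the C-group against 6.31, 9.61, 6.43, 6.40 and 6.37 in the P-group. Crx was 5.71, 5.70, 5.72, 5.82 and 5.84 in the C-group against 5.72, 6.60, 5.64, 5.64 and 5.73 in the P-group. P2 was again alone, by 3.24 log2 units for Mpp4 and by 0.88 for Crx. The variable probe set of Drd4 read 6.43, 6.23, 6.14, 6.15 and 6.12 in the C-group against 6.28, 7.38, 6.21, 6.32 and 6.05 in the P-group. The other 2 probe sets of Drd4, which were constant, showed none of this. Asmt, the last enzyme of melatonin synthesis, was 6.02, 5.94, 5.95, 5.84 and 5.91 in the C-group and 5.91, 8.13, 5.86, 5.91 and 5.86 in the P-group. For this enzyme too only P2 left the common range, with a value 4.64-fold over the median of the others.

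**Figure D1:**
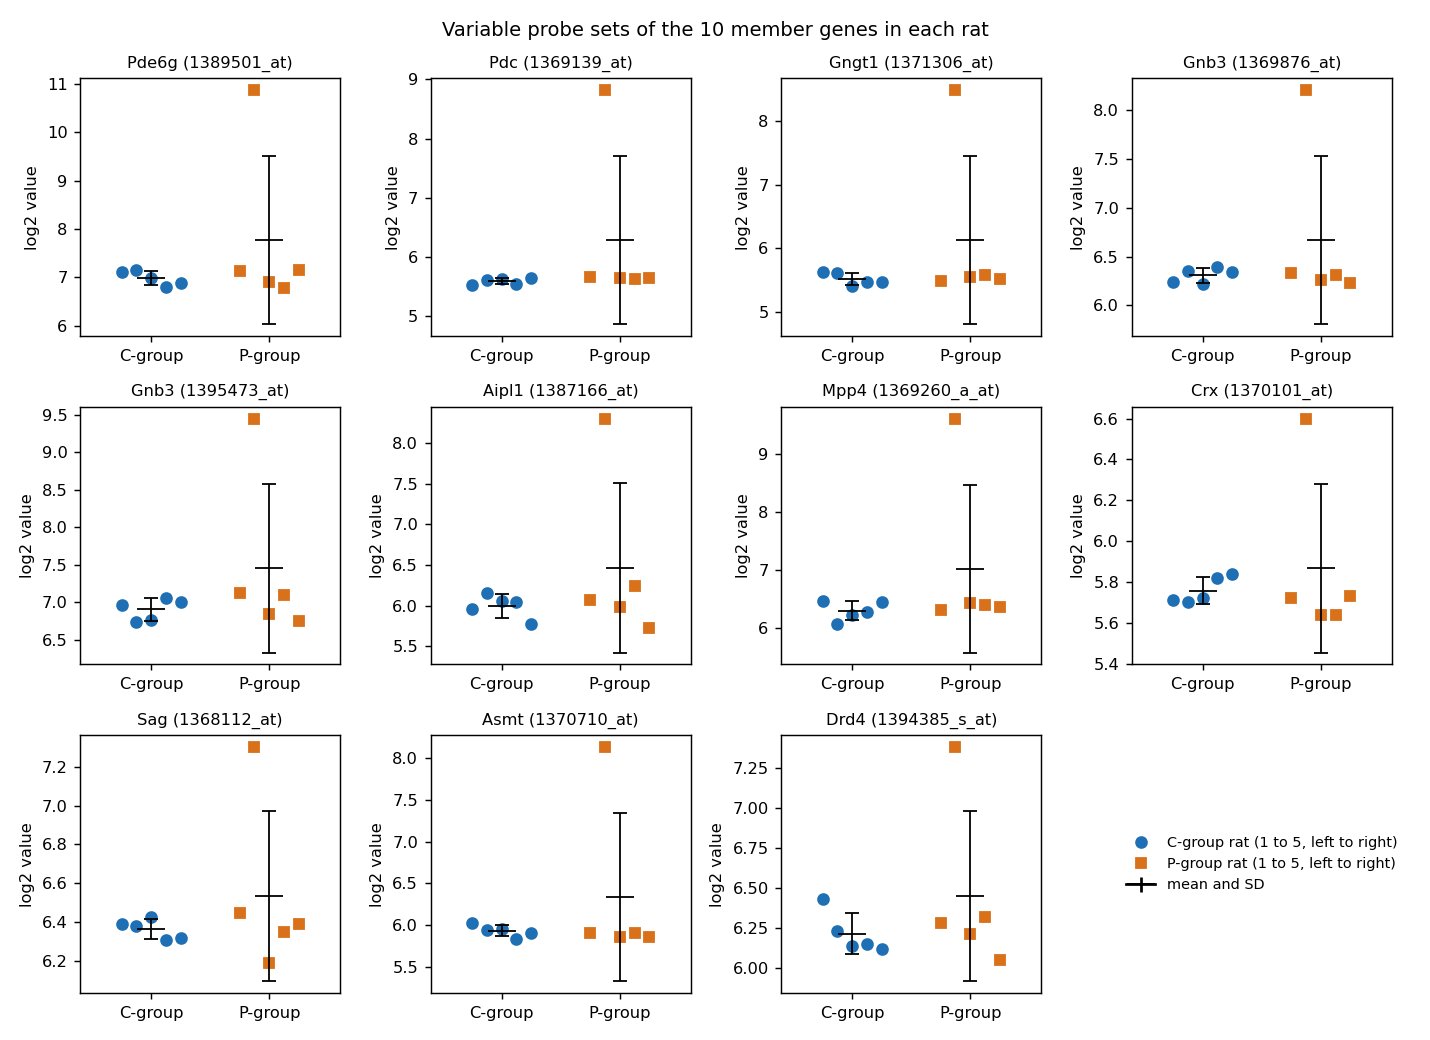
Log2 value (vertical axis) of each of the 11 variable probe sets of the 10 genes in every rat, with the 5 rats of the C-group (circles) left of the 5 rats of the P-group (squares), and the mean and SD of each group (n = 5). In every panel the second square, rat P2, is the highest point, for example 10.87 for Pde6g, and the other 9 points overlap between the groups; each panel has its own vertical axis, which does not start at 0.

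Promoter sequences are shown as a description, since 1 of the 10 genes, Crx, encodes a transcription factor of photoreceptors and pinealocytes. Whether Crx acted on the other genes in these rats was not tested. The 300 bases from 250 before to 50 after the start of a gene (RefSeq, GRCr8) were found for 8 of the 10 genes, the exceptions being Pde6g and Gnb3. The motifs TAATCC and TGACGTCA were searched on both strands. TAATCC, which reads GGATTA on the other strand, is the core that Crx and Otx2 bind. The palindrome TGACGTCA is the cAMP response element, and cAMP is the messenger through which noradrenaline acts on pinealocytes. The 2 motifs do not overlap each other. The 4 promoters of the 10 genes that held either motif are given here, 5′ to 3′ on the strand of the gene, with the motif in capitals.
Crx, chr1:85681803-85682102, minus strand: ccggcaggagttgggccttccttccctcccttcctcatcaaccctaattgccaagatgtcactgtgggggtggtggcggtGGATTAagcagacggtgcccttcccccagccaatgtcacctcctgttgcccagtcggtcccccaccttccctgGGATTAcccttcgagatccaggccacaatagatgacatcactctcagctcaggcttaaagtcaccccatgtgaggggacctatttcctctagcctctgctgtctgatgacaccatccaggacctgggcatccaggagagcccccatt
Gngt1, chr4:32960695-32960994, plus strand: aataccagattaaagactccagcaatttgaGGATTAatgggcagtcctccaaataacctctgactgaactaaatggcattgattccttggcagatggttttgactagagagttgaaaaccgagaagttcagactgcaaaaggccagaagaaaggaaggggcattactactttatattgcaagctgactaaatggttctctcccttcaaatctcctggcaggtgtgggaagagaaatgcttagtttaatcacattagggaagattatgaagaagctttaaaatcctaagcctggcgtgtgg
Aipl1, chr10:57163406-57163705, minus strand: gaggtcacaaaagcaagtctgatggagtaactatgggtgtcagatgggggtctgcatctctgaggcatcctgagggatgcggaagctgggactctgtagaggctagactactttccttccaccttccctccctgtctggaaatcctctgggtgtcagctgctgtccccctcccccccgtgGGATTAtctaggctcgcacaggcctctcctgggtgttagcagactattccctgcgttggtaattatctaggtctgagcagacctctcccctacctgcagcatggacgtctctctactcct
Asmt, chr12:21423287-21423586, minus strand: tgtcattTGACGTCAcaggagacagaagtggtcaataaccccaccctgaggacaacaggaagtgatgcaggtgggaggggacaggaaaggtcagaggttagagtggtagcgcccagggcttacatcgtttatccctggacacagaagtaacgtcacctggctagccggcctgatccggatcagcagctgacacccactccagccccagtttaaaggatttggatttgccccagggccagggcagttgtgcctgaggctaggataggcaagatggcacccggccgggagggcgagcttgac

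TAATCC lay on the opposite strand in 3 of the 8 promoters. Crx held it at bases -170 to -165 and again at -97 to -92 from its start, Gngt1 at -220 to -215, and Aipl1 at -70 to -65. TGACGTCA was in that of Asmt, at -243 to -236. Over all 33469 promoters of this length, 7.17% held TAATCC and 1.83% held TGACGTCA. The other 4 promoters, of Pdc, Mpp4, Sag and Drd4, held neither motif in this window. A match is a description of these letters only, and binding was not measured.

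Between the groups, the 11 variable probe sets had a median difference (C-group minus P-group) of -0.46 log2 units. Pde6g averaged 6.98 ± 0.14 in the C-group and 7.77 ± 1.74 in the P-group (SD, n = 5 each). It differed by -0.78, and limma gave this a standard error of 0.76. Mpp4 differed by -0.72 (standard error 0.63), Pdc by -0.69 (0.61) and Gngt1 by -0.61 (0.57). The differences of Gnb3 were -0.55 (0.49) and -0.36 (0.37), those of Aipl1 and Asmt -0.46 (0.46) and -0.40 (0.44). For Drd4, Sag and Crx the differences were -0.23 (0.24), -0.17 (0.19) and -0.11 (0.18). Each difference was of about the size of its standard error or smaller. The C-group and the P-group overlapped at all 11 probe sets. No share over all probe sets is set beside this count, so nothing is read from it.

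Rank products, the study's method, ranks all probe sets by each of the 25 differences that pair 1 rat of the C-group with 1 of the P-group, and calls a probe set at a false discovery rate (FDR) under 0.05. Over all probe sets it called 129 lower in the C-group (0.416%) and 620 higher (2.0%). The probe sets of Pde6g, Pdc, Gngt1, Mpp4 and Aipl1 and 1 of the 2 of Gnb3 were among those called lower, and none of the 13 was called higher. This count restates how the genes were chosen, and nothing is read from it. All 129 were variable, which is 4.44% of the 2904 variable probe sets. P2 had the highest value of the 10 rats at 44 of the 129 called lower. limma, which weighs each difference against the spread between rats, called 0 of 31042 probe sets (0%) after Benjamini-Hochberg adjustment, where the smallest adjusted p was 0.927. At an unadjusted p under 0.05 it had 915 (2.95%), none of them of the 10 genes.

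Without P2, the differences between the groups were close to 0. The mean of Pde6g was 6.98 ± 0.14 for the 5 rats of the C-group and 6.99 ± 0.18 for the 4 remaining rats of the P-group (SD), which is -0.0072 with a limma standard error of 0.10. The median over the 11 probe sets was -0.0058, with 7 below 0 and 4 above 0. Over all 2904 variable probe sets the median difference was 0.07 with P2 and 0.05 without it. The differences that remained ranged between -0.07 for Mpp4 (standard error 0.08) and 0.07 for Crx (0.04), and that of Pdc was -0.06 (0.03). Rank products then called none of the 13 probe sets in either direction. Leaving out any other rat left 3 to 7 of them called lower, with 3 without P4, 3 without P5 and 4 without P1, where 10, 29 and 82 of all 31042 probe sets were called lower. These counts too are of genes chosen for this difference, and nothing is read from them.

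**Figure D2:**
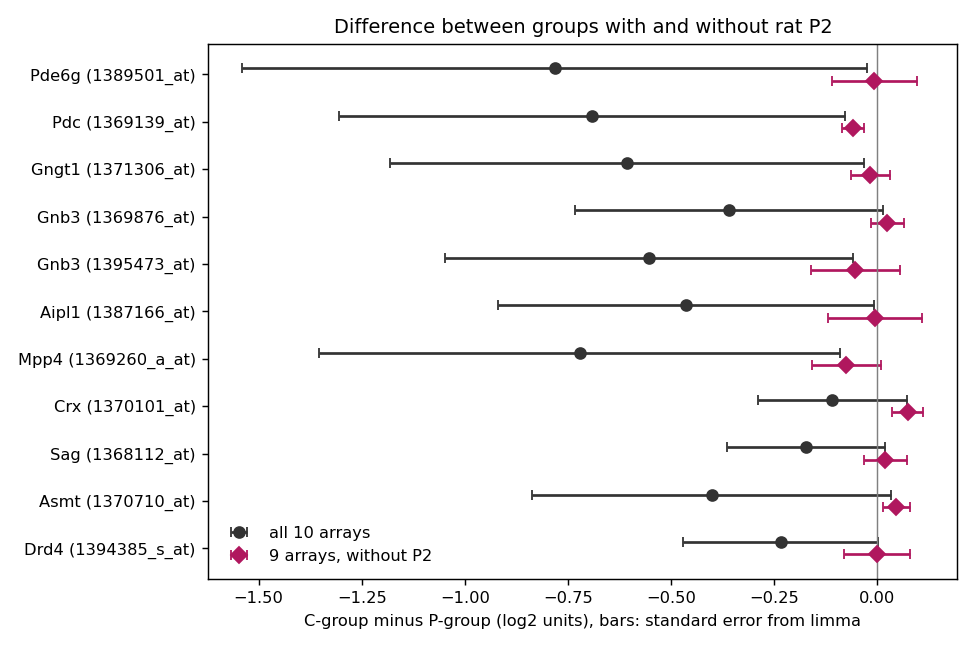
Difference between the C-group and the P-group (horizontal axis, C-group minus P-group, in log2 units) at the 11 variable probe sets, for all 10 arrays (circles) and for the 9 arrays without rat P2 (diamonds), with bars of 1 standard error from limma. With P2 the points run between -0.78 (Pde6g) and -0.11 (Crx), and without it they all lie between -0.07 and 0.07.

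The common variation of the genes followed the same rat. For the 54 pairs of probe sets of different genes among the 11, Pearson's r over the 10 arrays had a median of 0.97 and ranged from 0.90 for Crx and Drd4 to 0.997 for Gngt1 and Asmt. Without P2 the median r was 0.0028, with a range of -0.52 (Aipl1 and Crx) to 0.66 (Asmt and Drd4), and 27 of the 54 pairs were above 0. Spearman's rank correlation, which uses the order of the rats and not their distances, had a median of 0.33 over the 10 arrays and 0.08 over the 9. P2 held the top rank at all 11 probe sets, so the 0.33 is not free of this rat. The 2 probe sets of Gnb3, which measure 1 gene, had r = 0.99 with P2 and r = 0.49 without it. These correlations describe 10 and 9 arrays, and the pairs share the arrays and each other's probe sets.

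**Figure D3:**
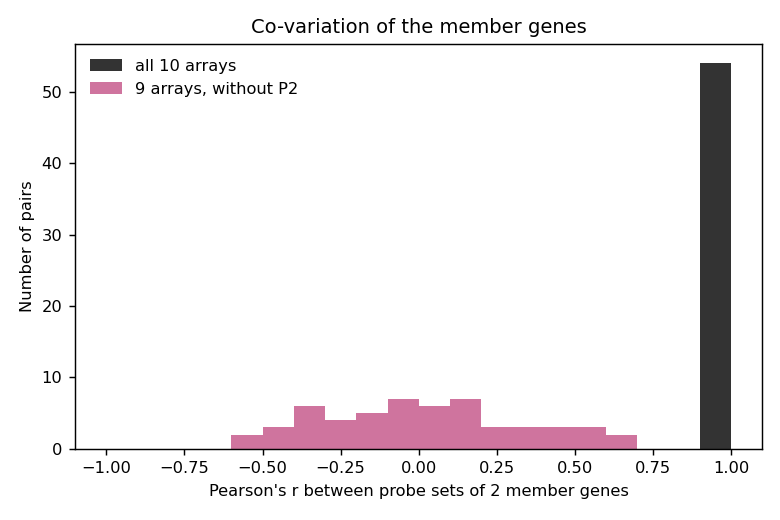
Number of pairs (vertical axis) by Pearson's r (horizontal axis) for the 54 pairs of variable probe sets of different genes among the 10, over all 10 arrays (dark) and over the 9 arrays without rat P2 (pink). All 54 pairs are above 0.90 with P2, whereas without it they spread from -0.52 to 0.66 around a median of 0.0028.

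The rest of the pathway was read from 4 lists of 94 genes, of which 76 were measured. Of these, 24 genes had a variable probe set and 52 only constant ones. P2 was the highest of the 10 rats at 18 of the 24 and lay over 1 log2 unit above the median of the other rats at 14. Of all 2904 variable probe sets, P2 was the highest at 196. It lay over 1 log2 unit above at 46 of them, which is 0.148% of all 31042 probe sets. Of these 46, 9 were probe sets of the 10 genes (8 genes, with Crx and Sag below the limit). P2 itself took part in deciding which probe sets are variable and which one stands for a listed gene with several, so these counts are a description. Of the 14 listed genes over 1 log2 unit above, Gch1, Ddc, Isl2, Otx2 and Cplx3 had 2 probe sets each, of which only 1 was. Cngb1 was over this limit at more than 1 probe set. Rank products called 2 of the 76 listed genes lower in the C-group, Guca1a (difference -0.41, FDR 0.019) and Cplx3 (-0.47, FDR 0.037), and 2 higher, Abca4 (0.27, FDR 0.015) and Otx2 (0.19, FDR 0.016), where the shares over all probe sets were 0.416% lower and 2.0% higher. Counts this small are not read as a result about the lists. limma called none of them. Without P2, rank products called 21 of all 31042 probe sets lower and 521 higher. Of the listed genes it then called 0 lower and 6 higher, namely Gnat2, Gngt2, Prph2, Rdh12, Abca4 and Otx2. These 6 are not read as a result either. The lower calls of listed genes also went to 1 without C3 or P3 and to 0 without P4, and the higher calls to 0 without C1 or C2 and to 1 without P4. The median difference of the 24 variable genes was -0.20.

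Of 38 measured genes of phototransduction and the outer segment, 14 were variable, and 12 of these were highest in P2. Gnat2 and Gngt2 encode the alpha and gamma subunits of cone transducin. Gnat2 was 5.87, 5.79, 5.91, 5.79 and 5.83 in the C-group against 5.77, 8.54, 5.77, 5.79 and 5.77 in the P-group. Gngt2 was 6.69, 6.50, 6.52, 6.46 and 6.50 in the C-group against 6.33, 9.35, 6.49, 6.44 and 6.38 in the P-group. Both had the shape seen for Pde6g, with P2 alone above a narrow common range. Without P2 they differed by 0.063 and 0.12, and rank products called both higher in the C-group (FDR 0.046 and 0.032). Most probe sets, 28138 of 31042, were constant, so differences this small can rank high among them. Among only the variable probe sets of all 10 rats, rank products called 0 of the listed genes higher. These 2 calls are therefore not read as a result. Prph2 and Rom1, the partner proteins that shape the rim of the outer segment discs, were 8.59 and 8.80 in P2, against at most 6.13 and 6.55 in the other 9 rats. Guca1b and Guca1a, activators of the guanylate cyclase that restores cGMP, were 8.40 and 7.98 in P2 and at most 6.32 and 6.40 elsewhere. Cngb1, a subunit of the cGMP-gated channel of rods, and Tulp1, a transport protein of photoreceptors, lay 1.75 and 2.25 log2 units above the median of the others. Cplx3, a complexin of ribbon synapses, was 8.95 in P2, but varied more among the other rats than these genes did (5.81 to 6.78). Abca4, the transporter of retinal derivatives in disc membranes, differed from these genes, as P2 had its lowest value, 5.74, and C2 its highest, 6.67.

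Of 15 measured genes of melatonin synthesis, its inputs and its receptors, 9 were constant and 6 variable, and 4 of the 6 were highest in P2. Gch1, the first enzyme of the synthesis of tetrahydrobiopterin, the cofactor of tryptophan hydroxylase, was 6.19, 6.29, 6.22, 6.15 and 6.26 in the C-group against 6.21, 8.26, 6.20, 6.21 and 6.17 in the P-group. Ddc, the decarboxylase that makes serotonin, was 8.42 in P2 and 7.13 to 7.57 in the others. Gch1 and Ddc each had another probe set, which was not over 1 log2 unit above the median of the others in P2. Adra1b, an alpha-1 adrenergic receptor, was 7.58 in P2 and at most 6.50 elsewhere, and Chrnb4, a nicotinic receptor subunit, was 6.96 in P2 and at most 6.32 elsewhere. At these 4 genes P2 was above every other rat. It was not the highest for Maoa, the monoamine oxidase that breaks down serotonin, or for Dio2, the deiodinase that activates thyroid hormone, with 9.26 and 6.82 in P2 and both highest in C1 (9.65 and 7.11). None of the 15 was called in either direction.

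Of 12 measured transcription factors, 4 were variable. Isl2 was 7.02 in P2 and 5.70 to 5.94 in the other rats. Otx2, which acts with Crx and is also expressed by the choroid plexus, was 7.84, 6.96, 5.97, 5.74 and 7.36 in the C-group and 5.67, 7.74, 7.36, 5.73 and 6.43 in the P-group. It was thus high in P2 and also in C1, C5 and P3. Ttr, a transport protein made by the choroid plexus, was 13.59, 13.49, 10.35, 9.09 and 13.60 in the C-group and 7.40, 9.29, 13.58, 10.18 and 12.99 in the P-group. P2 was high in Otx2 and low in Ttr, whereas C1, C5 and P3 were high in both. Neurod1 was highest in P2 (9.27, against 8.39 to 9.16), and Rorb had 6.54 in P2, within the 6.23 to 6.73 of the others. All 11 measured relatives and partners of Mpp4, Aipl1 and Drd4, among them the other dopamine receptors, had only constant probe sets.

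Several genes by which the pineal gland and the photoreceptor are usually known gave no variation. Aanat, the enzyme that sets the rhythm of melatonin, had 6.62 in every rat, P2 included. The rod genes Gnat1, Pde6b, Rcvrn, Grk1 and Cnga1 and the cone opsins Opn1sw and Opn1mw were constant too, at 5.77 to 6.37, and these were named here after their values were seen. Since qFARMS leaves constants where probes share no variation, and the values carry no detection calls, these probe sets give no information on P2. Tph1, Nrl and both melatonin receptors were listed but not analysed here.

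**Figure D4:**
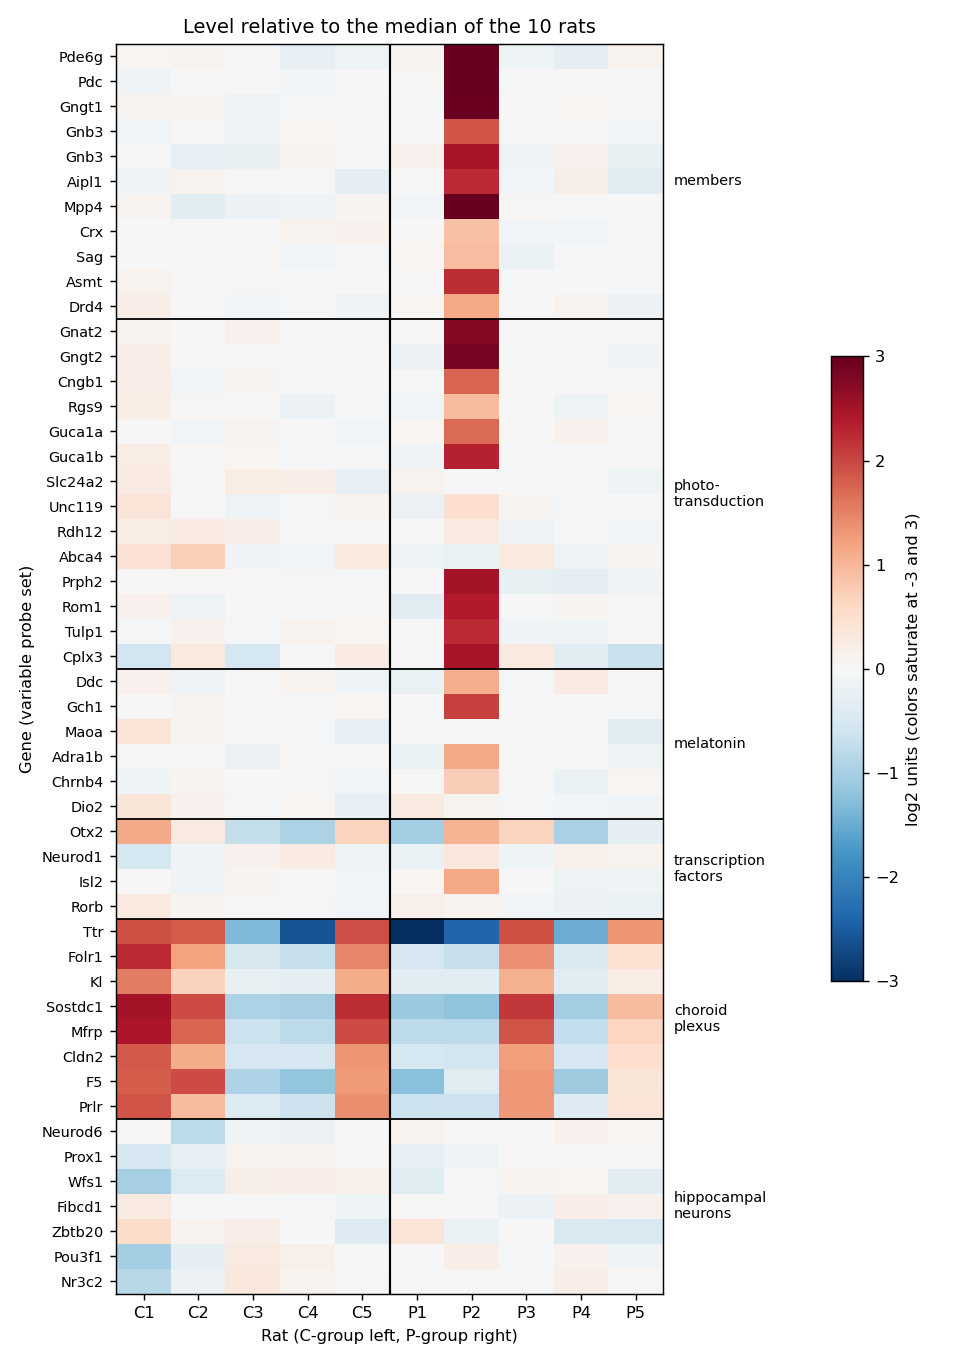
Level of variable probe sets (rows, by gene) in each rat (columns, C-group left, P-group right) relative to the median of the 10 rats, in log2 units, for the 10 genes, 3 pathway lists, and markers of choroid plexus and hippocampal neurons. Column P2 is red for most rows of the first 3 blocks (3.88 above the median of the other rats for Pde6g, where the color is saturated at 3), while the choroid plexus rows are high in C1, C2 and C5 and in P3 and P5, and the hippocampal rows of P2 stay near 0.

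Markers of the dissected tissue and of its neighbors were summed on the linear scale over the measured genes of each list. Those of hippocampal neurons (9 measured of 11 listed) summed to 5208 to 6591 in the C-group and 6141 to 6536 in the P-group, with 6223 in P2. Those of the choroid plexus (9 of 10) summed to 1089 to 15900 in the C-group and 714 to 14650 in the P-group, with 1200 in P2. On these sums P2 was not apart from the other hippocampi, and it was on the low side for choroid plexus. A linear sum is weighted to its brightest probe sets, such as Ttr (up to 13.60) for choroid plexus. For hippocampal neurons these include Mpped1, which was constant at 10.58. Those of the habenula (6 of 9) summed to 687 to 792 in the C-group and 658 to 876 in the P-group, and the 876 was that of P2, where Chrnb4 and Slc17a6 were highest. Those of the thalamus (7 of 7) were 1515 to 1730 in the C-group and 1518 to 1771 in the P-group, with 1771 in P2, and those of the meninges (8 of 8) were 1570 to 1941 in the C-group and 1346 to 1894 in the P-group, with 1664 in P2. The habenula sum of P2 was above that of every other rat (at most 796), and the thalamus sum was above theirs by little (at most 1767). Slc17a6 (8.84 in P2) counts in both of these sums, and Chrnb4 is also on the melatonin list. Tac1, the other variable habenula marker, was 6.69 in P2, below the median of the other rats (7.02). The remaining measured habenula markers were constant. The 3 measured genes of retinal cells other than photoreceptors and the 1 of the subcommissural organ were constant. No marker was at 0, since the lowest values lie at 5.54 to 6.45. The part of any neighboring tissue in the levels of P2 was not tested. In tissue of many cell types, fewer cells of a type and less RNA per cell cannot be told apart.

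**Figure D5:**
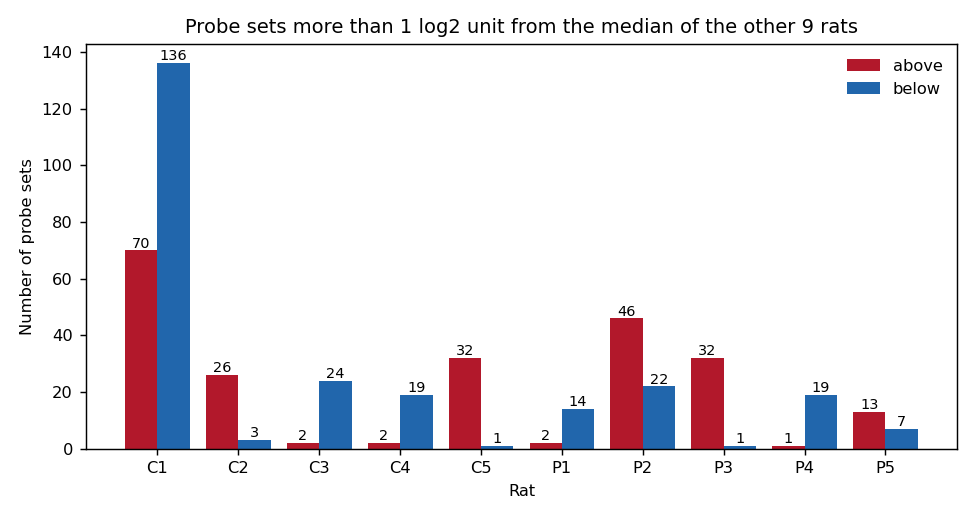
Number of the 31042 probe sets (vertical axis) that lay over 1 log2 unit above (red) or below (blue) the median of the other 9 rats, for each rat (horizontal axis, C-group left, P-group right). P2 had 46 above and 22 below, C1 had 70 above and 136 below, and only the 46 of P2 included probe sets of the 10 genes, 9 in number.

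Other rats also had probe sets far from the rest, but not those of the 10 genes. The number over 1 log2 unit above the median of the other 9 rats was 70 in C1, 32 in C5 and P3, 26 in C2, 13 in P5 and 1 or 2 in the remaining 4 rats, against 46 in P2. In no rat other than P2 was any probe set of the 10 genes more than 0.33 log2 units from the median of the others. The 46 of P2 comprised 9 probe sets of the 10 genes, 15 of 14 listed genes, 16 of 15 other named genes and 6 without a name. The genes outside the 10 with the largest distance in P2 were Gngt2 (2.86), Gnat2 (2.75), Prph2, Cplx3, Rom1, Guca1b, Tulp1 and Gch1 (2.06), then Car3, a carbonic anhydrase (1.96), Mgarp, a mitochondrial protein (1.96), Cngb1 (1.75) and Lgals3, a galectin (1.71). Thus 9 of these 12 belong to the lists and 3 do not.

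The genes whose pattern was most like that of the 10 were found by Pearson's r over the 10 arrays with the mean of the 11 probe sets, each centred. The highest was Fcer1a, the alpha chain of the high-affinity IgE receptor (r = 0.998), with 7.16 in P2 and 5.68 to 5.73 in the other 9 rats. It was followed by Gnat2, Gch1, Gngt2, Guca1b, Guca1a, Miox, Tulp1, Prph2, Cngb1, Lrit1 and Nphs1, the last with r = 0.99. Of these 12 genes, 8 are in the lists. The other 4 are Fcer1a, Miox, an enzyme of inositol breakdown (7.92 in P2), Lrit1, a membrane protein of photoreceptors (7.01), and Nphs1, which encodes nephrin (7.16). Spearman's rank correlation of the same 12 lay between -0.13 (Miox) and 0.52 (Gnat2), so that the likeness is that of 1 rat and not of the order of the others.

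The motif counts were also taken beyond the 10 genes. The 29 other named genes over 1 log2 unit above in P2 had 23 promoters, of which 6 held TAATCC (26.1%): those of Cngb1, Guca1a, Prph2, Lrit1, Esm1 and Smim44. The promoter of Isl2 was the only one of the 23 with TGACGTCA. The 52 listed genes with only constant probe sets had 43 promoters, of which 6 held TAATCC (14%) and 0 held TGACGTCA. The share of all promoters with TAATCC was 7.17%, and no test was made of these shares.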

How the data were processed

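Hippocampal total RNA of 5 rats of the C-group and 5 of the P-group was hybridized to 1 array each. The authors ran qFARMS in R for normalization and summarization, and log2 values were deposited. Other scalings were tried on these values and not on scanner files. Of 31099 probe sets, 57 controls were left out. Among the other 31042, 20826 carried 1 symbol, 436 several and 9780 none. Of the probe sets, 20758 matched the RefSeq gene table (GRCr8), and no symbol differed. Groups came from the titles, and the limma p-values rest on the spread among 5 rats in each group. The FDR of rank products comes from permutations within arrays and does not measure that spread. Arrays give no read depth, and their number limits the precision.

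Rank products (unpaired, 25 differences, 100 permutations within arrays, FDR under 0.05 in each direction) was computed over all probe sets in Python 3.11.15 (numpy 2.4.6, pandas 2.3.3), and limma 3.58.1 in R 4.3.3 gave standard errors and Benjamini-Hochberg adjusted p-values. Both were tested on simulated data. A listed gene was represented by its most variable probe set. The named genes were the 10, up to 6 variable genes of each list by SD, the 12 most like them over all arrays and 8 without P2, and the 12 highest in P2. Genes called from the lists, constant genes and other genes named beyond this were chosen after their values were seen. The members and lists were chosen with earlier results of these data known. Alternatives changed the pairing, statistic, scaling, filter, probe set and arrays used. Protein sequences were not used here.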

Additional observations from a re-analysis of the deposited data

Results flagged for a closer look

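A rat was set apart from its group of 5 when its gap to the nearest rat, divided by the range of the group, was over 0.71 (the critical value of Dixon's test), and the 35 variable probe sets of the 10 genes and the pathway lists gave 70 groups. This was so in 25 groups, and P2 was the highest rat of the P-group at 23 of them. Of the 25 groups, 11 are of the 10 genes, which were chosen for that rat. The other 14 groups are of the 24 listed probe sets, with Gngt2 counted in both the C-group and the P-group. Chance flags about 1 in 20 groups, and the count is not set against this, since the choice of genes used P2 and probe sets of the same rats are not independent. For the 10 genes the ratio was 0.911 for Pde6g, 0.988 for Pdc, 0.971 for Gngt1, 0.949 and 0.863 for Gnb3, 0.804 for Aipl1, 0.962 for Mpp4, 0.900 for Crx, 0.766 for Sag, 0.975 for Asmt and 0.799 for Drd4. These ratios are a description.

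Among the listed genes, P2 was highest with 0.993 for Gnat2, 0.947 for Gngt2, 0.952 for Cngb1, 0.815 for Rgs9, which speeds the turn-off of transducin, 0.920 for Guca1a, 0.952 for Guca1b, 0.896 for Prph2, 0.850 for Rom1, 0.942 for Tulp1, 0.981 for Gch1, 0.829 for Adra1b and 0.839 for Isl2. In the C-group, C1 was the highest for Gngt2 (0.744), at 6.69. In the P-group, P5 was the lowest for Maoa (0.825), at 8.95.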

How the results depend on the processing

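Median-centred arrays and quantile normalization kept the counts and medians within the limits used (129 and 122 probe sets lower in the C-group, 620 and 576 higher, median differences of -0.470 and -0.466), and they moved the median of all probe sets by -0.0062 and -0.0034. Rats with the same replicate number were not treated as pairs in the main fits. Their deviations correlated at -0.389 to 0.485. This range cannot decide whether they were handled as pairs, since a correlation of levels does not record the handling. With the replicate block, rank products on pairs gave 338 lower and 912 higher, and 4 lower and 4 higher of the listed genes. limma, with and without the replicate block, gave 0 in each of these 4 counts. Among only the variable probe sets, rank products gave 0 lower and 9 higher, and 0 and 0 of the listed genes. Without the dimmer probe sets it gave 37 lower and 157 higher, and 1 and 0 of the listed genes. The highest-mean probe set of each gene gave 3 and 2. By Spearman the median correlation of the 10 genes was 0.327.

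Leaving out 1 rat at a time gave 10 to 221 lower, 61 to 789 higher, 0 to 2 lower and 0 to 6 higher of the listed genes, a median difference of -0.646 to -0.0058 and a median r of 0.0028 to 0.980. The count lower moved by over 1.5 times without C3 (221), P1 (82), P2 (21), P3 (49), P4 (10) or P5 (29), and the count higher without C1 (61), C2 (110), C4 (234), P4 (409) or P5 (323). The median r fell only without P2, and the median difference was closest to 0 there. The causes of these changes were not tested, and each refit also leaves a smaller number of rats or probe sets. In the 132 refits of single probe sets of the 10 genes, no called difference changed sign, which says little, since limma called none.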

Other observations

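Beyond the pathway, the probe sets high in P2 included both probe sets of Mitf, the transcription factor of pigment cells, which also acts in other cell types. One read 7.60, 7.31, 7.06, 6.87 and 7.20 in the C-group against 6.89, 8.49, 7.34, 7.09 and 7.20 in the P-group, and the other was 7.63 in P2 and 5.92 to 6.92 in the other rats. Rd3, a regulator of guanylate cyclase in photoreceptors that was on no list, was 1.24 log2 units above the median of the others in P2. Both genes were named after their values were seen.

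Without P2, the small differences that remained among the other 9 rats resembled other genes. The highest Pearson's r with the mean of the 11 probe sets over 9 arrays was that of Etv1, a transcription factor (0.92), followed by Cck, the neuropeptide cholecystokinin (0.88), Lcp1 (0.86), Tes (0.86), Atl1 (0.85), Ntng1 (0.83), Serpini1 (0.83) and Kcnc2, a potassium channel (0.82). None of these 8 was over 0.29 log2 units above the median of the others in P2. They are the highest of all named variable probe sets, so that high values are found by the search itself.

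P2 was over 1 log2 unit below the median of the other 9 rats at 22 probe sets, of which 15 had no name and 5 were listed choroid plexus genes. At 9 of the unnamed ones P2 was the lowest rat by more than 0.5 log2 units.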
